A study of Mus musculus with 16 samples.

Results

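Histones package DNA. An octamer built from the core histones H2A, H2B, H3 and H4 forms the nucleosome, and the linker histone H1 sits where the DNA enters and leaves it. Most core and linker histone genes are replication-dependent: they lie in clusters, their transcription is switched on as cells copy their DNA, and their mRNAs end in a stem-loop that is bound by Slbp instead of in a poly(A) tail. A second kind, the replacement variants such as H3.3, H2A.Z and macroH2A, is made throughout the cell cycle from polyadenylated mRNA and is the usual supply of new histone in cells that no longer divide, which includes most cardiomyocytes of the adult heart.

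The genes described here were all core and linker histone genes on the array, taken by name (the Hist1h, Hist2h, Hist3h and Hist4h genes, now called H1f, H2ac, H2bc, H3c and H4c genes), with the H2af and H3f variant genes set beside them for comparison. There were 72 such probes of 65 genes among 25697 probes and 16593 named genes on the array. Of these, 64 probes of 58 genes were core or linker histones, and 8 probes of 7 genes were variants. Cardiac RNA came from 16 C57BL/6 mice at 18 weeks of age by the labels, 1 array per mouse, in 4 groups of 4: male and female WT mice, and male and female mice that lacked estrogen receptor alpha in cardiomyocytes, cs-ERα-/-. WT mice carried the floxed allele of ERα on both chromosomes (ERα flox/flox), and in cs-ERα-/- mice Cre recombinase under the α-MHC promoter, which is active in cardiomyocytes, removed exon 3. Other cells of the heart were not targeted, and the RNA was from pulverized cardiac tissue of all cell types. A difference in the number of cells of a type therefore cannot be told apart from a difference in RNA per cell. The study compared the groups to find cardiac transcripts that depend on ERα, on sex, or on both.

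Values are log2 signals after correction for the negative control beads and quantile normalization. Signals of different probes are not on a common scale, so levels were compared between mice for a probe and not between genes. Genes were chosen by name, and the probes to be tested were selected on their detection p-values. A probe was tested where its signal exceeded that of the control beads, at a detection p under 0.05, on 3 of the 4 arrays of any group. The arrays resembled each other, with correlations of 0.993 to 0.996 and 11492 to 12610 detected probes, and 12246 probes were tested in all. Both probes for Esr1, the gene that encodes ERα, were detected on 0 of 16 arrays, so these arrays do not check the deletion.

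Of the 64 core and linker probes, 34 probes of 33 genes passed the detection rule. These were 2 H1 probes, 9 H2A probes, 9 H2B probes, 7 H3 probes and 7 H4 probes. All 34 passed in every one of the 4 groups and 33 were detected on all 16 arrays, so none entered the test through a single high group. The remaining probe, for H3c7, was detected on 15 arrays and lay closest to the rule from inside. Just outside it lay H2ac4 and H2ac11 with 4 arrays each, and H2bc3, H4c3 and H4c14 with 1 array each. The other 25 untested probes were detected on 0 arrays. They included 8 of the 10 H1 probes, among them those for H1f3 and H1f4, which encode further somatic linker histones. All 7 variant genes were tested with 1 probe each, and a dimmer second probe for H3f3a was not detected.

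The labelling reaction was primed with oligo-dT, which pairs with poly(A) tails. Stem-loop histone mRNA is a poor template for such a primer, and the forms of each histone transcript that were read here are not known. Many genes of a class also encode the same or nearly the same protein, and the probe sequences were not used here, so a probe may have read several genes of its class. Each gene name below is the name of a probe's annotated target in this sense.

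Most of the 58 core and linker genes are neighbours. In the GRCm38.p6 annotation, 44 of them lie on chromosome 13 between positions 21717628 and 23934913, which is the Hist1 cluster, and 7 lie on chromosome 3 between positions 96219885 and 96270192, which is the Hist2 cluster. They are short, with a median span of 489 bp on chromosome 13. The exceptions there are H2bc6 and H2bc4, which are annotated over 37455 and 8282 bp. No member overlaps another.

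Promoters were searched for elements known from histone genes, since genes of a class are switched on together. RefSeq promoters, 250 bases before to 50 after the start site, were at hand for 59 of the 65 genes. The letters searched, on both strands, were CCAAT for the CCAAT box, ATTTGCAT for the octamer that binds Oct-1, TATAAA for the TATA box, and GGTCCG for the core of the element near the start of H4 genes. Promoters of 3 genes that were higher in cs-ERα-/- hearts (H2bc12, H2bc7 and H3c4), 1 H4 gene (H4c8) and the H3.3 gene H3f3b are shown to compare the classes. They are from RefSeq on GRCm38.p6, written from 5′ to 3′ along the gene, with matches to the searched letters in capitals, and no matches in them overlap.
H2bc12, chr13:22035571-22035870, plus strand: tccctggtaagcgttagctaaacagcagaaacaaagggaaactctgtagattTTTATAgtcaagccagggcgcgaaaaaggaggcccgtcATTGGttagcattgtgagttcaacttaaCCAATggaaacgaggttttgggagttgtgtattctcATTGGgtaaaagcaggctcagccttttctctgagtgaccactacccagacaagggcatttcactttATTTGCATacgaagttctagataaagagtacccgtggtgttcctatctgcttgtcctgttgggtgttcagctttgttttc
H2bc7, chr13:23574158-23574457, minus strand: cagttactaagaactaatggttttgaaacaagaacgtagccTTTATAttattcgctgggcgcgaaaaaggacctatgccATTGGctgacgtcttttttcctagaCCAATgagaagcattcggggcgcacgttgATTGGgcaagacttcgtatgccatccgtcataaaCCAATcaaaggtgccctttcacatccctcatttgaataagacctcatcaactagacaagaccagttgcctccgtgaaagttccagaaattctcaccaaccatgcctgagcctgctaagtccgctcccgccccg
H3c4, chr13:23575513-23575812, plus strand: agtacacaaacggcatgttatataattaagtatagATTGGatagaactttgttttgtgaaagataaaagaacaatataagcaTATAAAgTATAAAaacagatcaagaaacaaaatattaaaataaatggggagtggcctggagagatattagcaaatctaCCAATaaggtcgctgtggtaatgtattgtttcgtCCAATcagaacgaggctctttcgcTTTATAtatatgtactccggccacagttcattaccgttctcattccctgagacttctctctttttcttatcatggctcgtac
H4c8, chr13:23530794-23531093, plus strand: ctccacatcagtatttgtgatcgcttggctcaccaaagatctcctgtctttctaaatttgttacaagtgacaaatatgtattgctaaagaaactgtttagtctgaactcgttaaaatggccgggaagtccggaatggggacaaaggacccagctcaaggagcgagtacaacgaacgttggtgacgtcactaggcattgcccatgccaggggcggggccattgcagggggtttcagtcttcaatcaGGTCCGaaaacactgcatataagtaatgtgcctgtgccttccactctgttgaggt
H3f3b, chr11:116024455-116024754, minus strand: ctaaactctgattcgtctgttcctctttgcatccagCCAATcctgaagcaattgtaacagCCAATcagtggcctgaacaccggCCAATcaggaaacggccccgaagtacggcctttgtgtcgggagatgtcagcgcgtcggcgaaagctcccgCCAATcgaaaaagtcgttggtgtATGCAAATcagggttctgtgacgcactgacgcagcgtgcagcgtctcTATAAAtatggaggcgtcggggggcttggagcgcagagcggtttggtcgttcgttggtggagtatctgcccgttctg

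The classes differed in which letters they held. CCAAT was found in all 15 H2A, 12 H2B and 7 H3 promoters, in 7 of 9 H1 and 4 of 6 variant promoters and in 2 of 10 H4 promoters, against 37.9% of all 27025 promoters. The octamer was found in 7 of 15 H2A and 6 of 12 H2B promoters and in 1 of 6 variant promoters, and in 0 of the H1, H3 and H4 promoters, against 1.75% of all promoters. H2bc12 holds it 30 bases before its start site. GGTCCG was found in all 10 H4 promoters, as 5 bases before the start site of H4c8, in 1 of 12 H2B, 1 of 9 H1 and 1 of 6 variant promoters, in 0 of 15 H2A and 0 of 7 H3 promoters, and in 8.39% of all promoters. TATAAA was found in 11 of 15 H2A, 7 of 12 H2B, 6 of 10 H4, 4 of 9 H1, 2 of 7 H3 and 1 of 6 variant promoters, against 14.2% of all promoters. The searched windows overlap in the 6 back-to-back pairs of H2A and H2B genes described below. A match there can count for both classes, so their counts are not independent. The TATAAA matches of H2bc12 and H2bc7 are on the strand opposite to the gene, at -198 and -209 from the start site. H3f3b, a variant gene, holds CCAAT, the octamer and TATAAA as well. The 6 called genes with a promoter at hand (H2bc6, H2bc7, H2bc12, H3c4, H3c6 and H3c13) hold CCAAT, as every H2B and H3 promoter did, and only H2bc12 of them holds the octamer. A match describes the letters and is no evidence of binding.

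The comparison of genotypes asked which transcripts differed between cs-ERα-/- and WT hearts over both sexes. Of the 34 core and linker probes, 8 were higher and 0 lower in cs-ERα-/- hearts at an adjusted p under 0.05 in the limma fit, 5 of the 7 H3 probes and 3 of the 9 H2B probes, and none of the 7 variant probes passed in either direction. Over all tested probes 2.43% were called higher and 3.74% were called in either direction. The called genes were H3c7, H3c4, H3c1, H3c6 and H3c13 of the H3 class and H2bc6, H2bc7 and H2bc12 of the H2B class. All but H3c13 are Hist1 genes. Their log2 differences lay between 0.19 and 0.54, which are folds of 1.14 to 1.46. The count of 8 depended on the scaling and on single mice: only H3c7 was called when arrays were scaled to a common median instead of quantile-normalized, and with 1 array left out 5 to 12 probes were. The sizes of the dim probes depended on the processing as well. H3c7 was at 0.30 without the background correction made here and at 0.81 with the authors' normalized values, beside 0.54 here. H3c1 was at 0.22 and 0.51, beside 0.38 here. The deposited signals of all 16 arrays held values below 0, so a background had already been subtracted from them.

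Without adjustment, 18 of the 34 probes had a p under 0.05, and all 18 were higher in cs-ERα-/- hearts, while 9.04% of all tested probes met this. The difference was above 0 for 32 of the 34 probes, against 47.6% of all probes, and above 0 in both sexes for 29, against 30.4%. The median log2 difference was 0.162 over the 34 probes and -0.006 over all tested probes. For none of the 34 did the 8 cs-ERα-/- arrays lie wholly above the 8 WT arrays, which held for 0.392% of all probes. These counts describe a set of related probes that were measured in the same 16 mice, and they are not independent of each other.

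**Figure D1:**
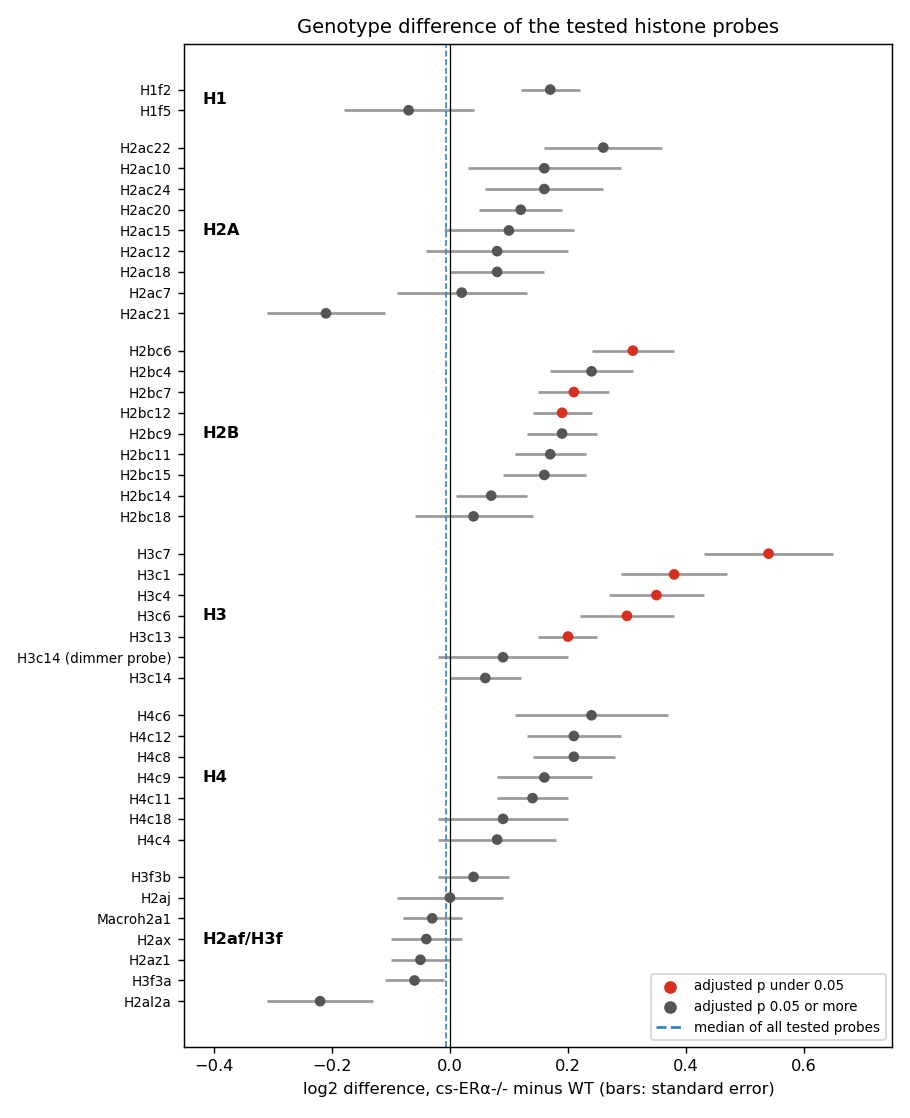
Log2 difference between cs-ERα-/- and WT hearts (x axis) for the 34 core and linker and 7 variant histone probes tested (rows, by class). Points are estimates from 8 against 8 mice and bars are standard errors. The 8 called probes, in red, are all H2B or H3 genes between 0.19 and 0.54, and the variants lie between -0.22 and 0.04.

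The H3 class had the most calls, with 5 of its 7 probes. H3 carries the tail on which many of the regulatory methyl and acetyl marks of chromatin are placed. For H3c7 (Hist1h3f) the log2 signals were 5.46, 5.29, 5.42 and 5.71 in male WT, 5.81, 5.45, 5.80 and 6.13 in female WT, 6.17, 5.79, 6.16 and 6.27 in male cs-ERα-/- and 6.01, 6.28, 6.60 and 6.14 in female cs-ERα-/- mice. The 4 male cs-ERα-/- mice lay above the 4 male WT mice, and the female groups overlapped through 1 WT mouse at 6.13. The mean rose from 5.63 ± 0.28 to 6.18 ± 0.23 (SD, n = 8 per genotype), a log2 difference of 0.54 with a standard error of 0.11 (limma, adjusted p = 0.00629). It was the 1 called probe that was not detected on all 16 arrays. The array without detection was a male WT array, and the male WT mean of 5.47 was near the detection limit. The array holds 2 further H3c7 probes, both detected on 0 arrays, so only 1 of its 3 probes gave a level.

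H3c4 (Hist1h3d) gave log2 signals of 7.35, 7.41, 7.29 and 7.43 in male WT, 7.15, 7.66, 7.35 and 7.49 in female WT, 7.62, 7.71, 7.56 and 7.88 in male cs-ERα-/- and 7.67, 7.72, 7.78 and 7.98 in female cs-ERα-/- mice. Within each sex every cs-ERα-/- mouse was above every WT mouse, although the female WT mouse at 7.66 lay above 2 of the male cs-ERα-/- mice. The difference was 0.35 with a standard error of 0.08 (adjusted p = 0.00886).

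H3c1 (Hist1h3a) gave log2 signals of 5.96, 5.65, 5.78 and 5.77 in male WT, 6.33, 5.98, 6.21 and 5.81 in female WT, 6.14, 6.16, 6.34 and 6.49 in male cs-ERα-/- and 6.37, 6.23, 6.36 and 6.40 in female cs-ERα-/- mice. The male groups did not overlap, and 2 of the female WT mice reached into or near the range of the cs-ERα-/- females. The difference was 0.38 with a standard error of 0.09 (adjusted p = 0.0197).

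H3c6 (Hist1h3e) was measured at 7.53, 7.44, 7.56 and 7.63 in male WT, 7.57, 7.95, 7.20 and 7.63 in female WT, 7.79, 7.85, 7.62 and 8.05 in male cs-ERα-/- and 7.92, 7.91, 7.82 and 7.94 in female cs-ERα-/- mice. The female WT mice spread from the lowest signal of all 16 to above their cs-ERα-/- counterparts, and the male groups overlapped by 1 mouse. The difference was 0.30 with a standard error of 0.08 (adjusted p = 0.0486), the closest of the 8 calls to the threshold, and it was retained in only 2 of the 16 fits that left out 1 array.

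H3c13 (Hist2h3b), the Hist2 gene among the calls, had log2 signals of 9.07, 9.0, 8.91 and 8.89 in male WT, 8.90, 8.95, 8.77 and 8.85 in female WT, 9.10, 9.17, 9.08 and 9.34 in male cs-ERα-/- and 9.07, 9.07, 9.01 and 9.14 in female cs-ERα-/- mice. Within each sex the groups were separate. The difference was 0.20 with a standard error of 0.05 (adjusted p = 0.0261). The remaining H3 gene, H3c14, also of Hist2, had 2 tested probes with differences of 0.06 and 0.09 (adjusted p = 0.646 and 0.723).

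H2B pairs with H2A in a dimer on each face of the nucleosome, and 3 of its 9 probes were called. H2bc6 (Hist1h2be) gave log2 signals of 6.83, 6.93, 6.91 and 6.77 in male WT, 6.98, 7.16, 7.01 and 7.03 in female WT, 6.93, 6.94, 7.08 and 7.34 in male cs-ERα-/- and 7.55, 7.40, 7.37 and 7.47 in female cs-ERα-/- mice. The female cs-ERα-/- mice were above all 12 other mice, and the male groups did not overlap, although the lowest male cs-ERα-/- mouse and the highest male WT mouse are both 6.93 at 2 decimals. The genotype difference was 0.31 with a standard error of 0.07 (adjusted p = 0.0151).

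H2bc12 (Hist1h2bk) had log2 signals of 9.56, 9.69, 9.58 and 9.59 in male WT, 9.59, 9.74, 9.53 and 9.50 in female WT, 9.77, 9.75, 9.76 and 9.85 in male cs-ERα-/- and 9.69, 9.83, 9.83 and 9.80 in female cs-ERα-/- mice. The ranges touched only through 1 female mouse of each genotype. The rise of 0.19 was small, but so was its standard error of 0.05 (adjusted p = 0.0211), since the residual SD of 0.07 was the lowest among the 34 probes.

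H2bc7 (Hist1h2bf) had log2 signals of 10.96, 11.16, 11.09 and 11.17 in male WT, 10.91, 11.26, 10.94 and 11.15 in female WT, 11.19, 11.21, 11.26 and 11.35 in male cs-ERα-/- and 11.29, 11.15, 11.34 and 11.52 in female cs-ERα-/- mice. The male groups were separate by a small margin and the female groups overlapped. The difference was 0.21 with a standard error of 0.06 (adjusted p = 0.0425), and the call was lost in 11 of the 16 fits that left out 1 array.

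**Figure D2:**
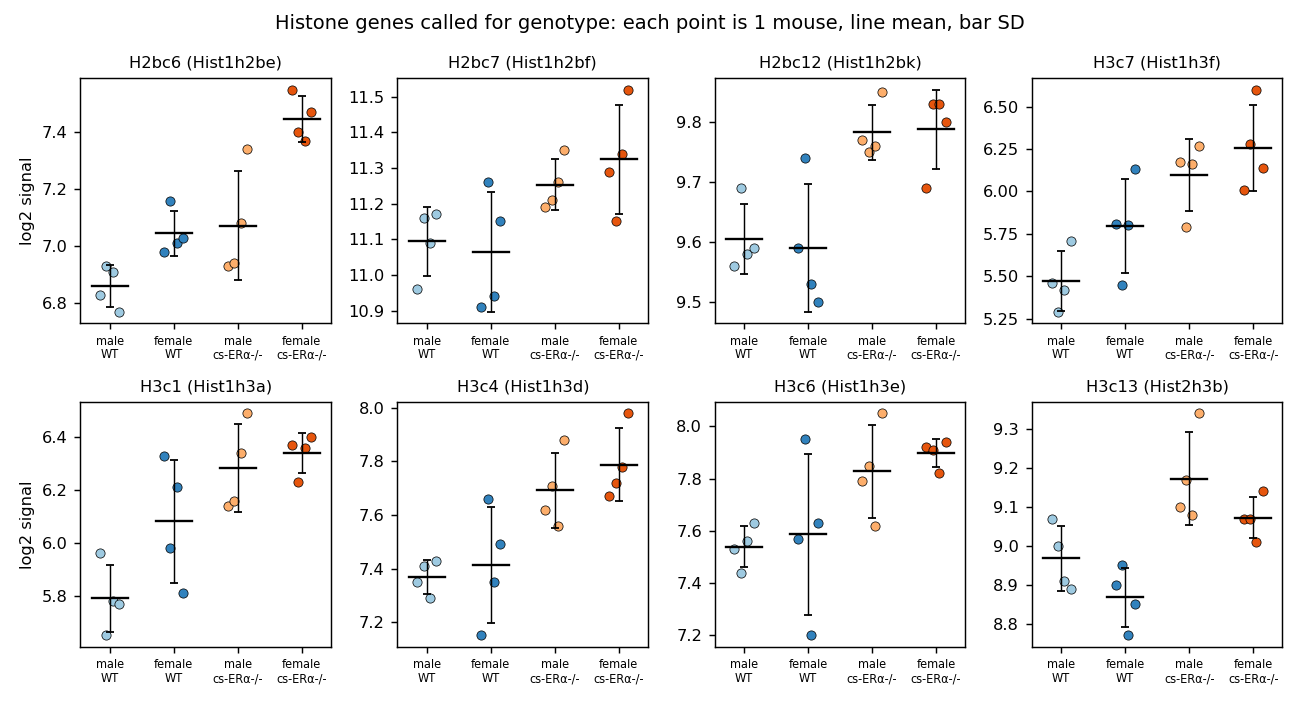
Log2 signal (y axis) of the 8 histone genes called for genotype in the 4 groups (x axis). Each point is 1 mouse, lines are means and bars are SD of 4 mice. Male cs-ERα-/- mice lie above all male WT mice in 7 of the 8 panels, female cs-ERα-/- mice above all female WT mice in 3 (H2bc6, H3c4 and H3c13), and both genotypes overlap over all 16 mice in each panel. The genes were chosen by their calls in these same mice, which favours separate groups. Among all tested probes, 3.55% were separate in this direction in males and 3.23% in females.

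Among the uncalled core and linker probes, the smallest p-values were those of H2bc4, H2bc9 and H1f2. For H2bc4 (Hist1h2bc) the log2 signals were 10.73, 10.78, 10.89 and 10.59 in male WT, 10.51, 10.95, 10.63 and 10.80 in female WT, 10.74, 10.97, 10.97 and 11.23 in male cs-ERα-/- and 10.80, 10.97, 10.98 and 11.15 in female cs-ERα-/- mice. Groups overlapped in both sexes, and the difference of 0.24 had a standard error of 0.07 (adjusted p = 0.0553). A second H2bc4 probe was detected on 0 arrays.

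H2bc9 (Hist1h2bh) had log2 signals of 10.28, 10.48, 10.35 and 10.46 in male WT, 10.28, 10.53, 10.22 and 10.45 in female WT, 10.50, 10.52, 10.47 and 10.66 in male cs-ERα-/- and 10.58, 10.44, 10.59 and 10.80 in female cs-ERα-/- mice. Again the groups overlapped in both sexes, with a difference of 0.19 and a standard error of 0.06 (adjusted p = 0.0573). The other uncalled H2B probes, H2bc11, H2bc14, H2bc15 and H2bc18, had differences of 0.04 to 0.17.

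H1f2 (Hist1h1c) encodes H1.2, a linker histone of somatic cells. Its log2 signals were 12.76, 12.80, 12.96 and 12.68 in male WT, 12.76, 12.89, 12.71 and 12.84 in female WT, 13.21, 13.04, 12.79 and 13.01 in male cs-ERα-/- and 12.96, 13, 12.89 and 12.86 in female cs-ERα-/- mice. A single male cs-ERα-/- mouse at 12.79 fell among the WT mice, and the female groups overlapped. The difference was 0.17 with a standard error of 0.05 (adjusted p = 0.0704). The other tested linker histone gene, H1f5, differed by -0.07 with a standard error of 0.11 (adjusted p = 0.802).

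None of the 7 H4 probes was called, although all 7 differences were above 0, from 0.08 for H4c4 to 0.24 for H4c6, and 4 had an unadjusted p under 0.05. H4c8 (Hist1h4h), whose promoter is printed above, came closest, with a difference of 0.21 and a standard error of 0.07 (adjusted p = 0.0838). The median difference of the H4 class was 0.159, beside 0.301 for H3, 0.187 for H2B and 0.103 for H2A. Whether the classes differ from each other was not tested.

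None of the 9 H2A probes was called either. Differences ran from -0.21 for H2ac21 (standard error 0.10, adjusted p = 0.305) to 0.26 for H2ac22 (standard error 0.10, adjusted p = 0.179), and 8 of the 9 were above 0. The H2A probes were also the least steady between mice of a group. Their residual SD had a median of 0.26 and ran from 0.16 to 0.33, while the median was 0.13 for H2B, 0.16 for H3, 0.18 for H4 and 0.10 for the variants. The 95% interval of H2ac10, the H2A probe with the largest residual SD, ran from -0.11 to 0.43. It includes every one of the called differences but the 0.54 of H3c7. Other H2A intervals include fewer. Those of H2ac7, H2ac18 and H2ac20 ended at 0.23, 0.24 and 0.25, below the called differences of 0.30 or more, and that of H2ac21 ended at 0.01. Those of H2ac12, H2ac15, H2ac24 and H2ac22 ended at 0.33, 0.33, 0.36 and 0.48.

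This spread was shared by the H2A probes. In each group, 1 or 2 mice were low for the whole class. Male WT mouse 1 was below the mean of its group for 9 of 9 H2A probes, by 0.31 on average, and was the lowest of the 4 mice for 8. Female WT mouse 4 was below for 9 of 9, with a mean deviation of -0.31, and male cs-ERα-/- mouse 1 for 9 of 9, with a mean deviation of -0.32. In the female cs-ERα-/- group, mice 1 and 4 were below for 9 of 9, with mean deviations of -0.19 and -0.13. The low mice were thus found in all 4 groups.

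H2ac10 (Hist1h2af) shows the pattern in single values. Its log2 signals were 7.91, 8.54, 8.36 and 8.69 in male WT, 8.63, 8.23, 8.53 and 7.85 in female WT, 8.05, 8.53, 8.75 and 8.46 in male cs-ERα-/- and 8.16, 8.88, 8.72 and 8.45 in female cs-ERα-/- mice. The first male WT, last female WT, first male cs-ERα-/- and first female cs-ERα-/- mice were lowest in their groups. The H2B probes deviated less: in the same 4 mice their mean deviations were -0.06, 0.04, -0.09 and -0.04. By count, 8 of 9 H2B probes were below the group mean in the first, the third and the fourth of these mice, and 3 of 9 in female WT mouse 4. In the H4 class male cs-ERα-/- mouse 1 was low as well, at -0.26, while male WT mouse 1, female WT mouse 4 and female cs-ERα-/- mouse 1 had deviations of 0.04, 0.06 and -0.08. Probes that read the same near-identical transcripts would move together, and whether they did so here was not tested.

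**Figure D3:**
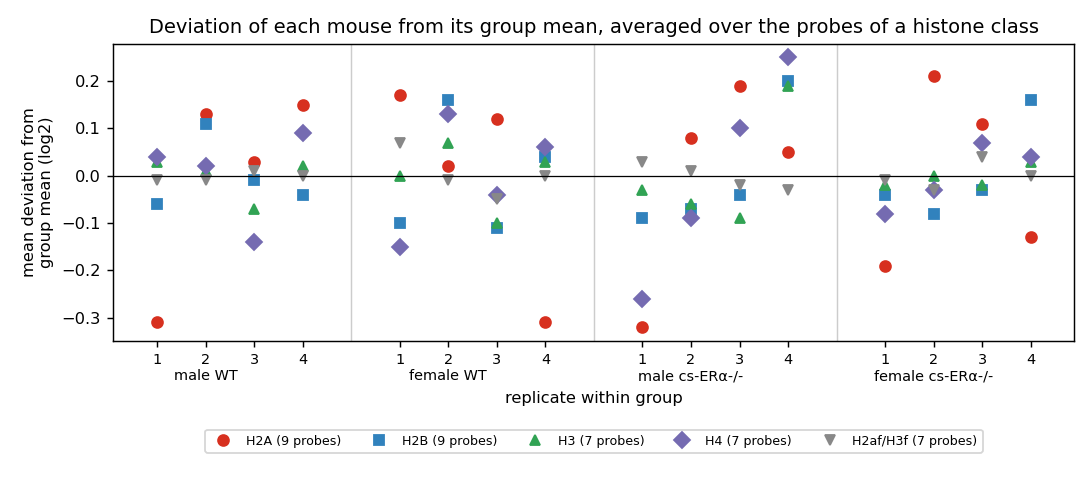
Deviation of each mouse from its group mean in log2 units, averaged over the probes of a histone class (y axis), for the 4 mice of each group (x axis). H2A, as red circles, falls to between -0.32 and -0.19 in 1 mouse of every group. The H2B values of those mice lie between -0.09 and 0.04, and the variant values of all mice between -0.05 and 0.07.

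Some mice were high for several classes. Male cs-ERα-/- mouse 4 was the highest of its group for 9 of 9 H2B and 7 of 7 H3 probes, with mean deviations of 0.20 and 0.19, and for 5 of 7 H4 probes, with a mean deviation of 0.25. Female WT mouse 2 was the highest of its group for 8 of 9 H2B, 4 of 7 H3 and 4 of 7 H4 probes, with mean deviations of 0.16, 0.07 and 0.13. Female cs-ERα-/- mouse 4 was the highest for 7 of 9 H2B and 5 of 7 H3 probes, with mean deviations of 0.16 and 0.03. Without male cs-ERα-/- mouse 4, 5 probes were called for genotype in place of 8, and 3.22% of all probes in place of 3.74%. The count was also 5 without female WT mouse 3 and without female cs-ERα-/- mouse 4, where 3.34% and 3.43% of all probes were called. It rose to 12 without female WT mouse 2, where 3.47% of all probes were called.

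H2A and H2B genes often stand back to back around a shared promoter. By RefSeq, 6 such pairs, all H2A with H2B on chromosome 13, have start sites within 1000 bp of each other, and both genes were tested in 3 pairs. H2bc12 and H2ac12 start 178 bp apart, so the printed H2bc12 promoter reaches past the start of H2ac12. Their genotype differences were 0.19 with a standard error of 0.05 (adjusted p = 0.0211) and 0.08 with a standard error of 0.12 (adjusted p = 0.797). H2bc7 and H2ac7 start 174 bp apart, and differed by 0.21 with a standard error of 0.06 (adjusted p = 0.0425) and by 0.02 with a standard error of 0.11 (adjusted p = 0.963). In the third pair, with 164 bp between starts, H2bc15 differed by 0.16 and H2ac15 by 0.10, and neither was called. In each pair the H2A gene had the larger standard error, and the difference between partners was not tested.

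The variant histones served as the comparison. H3f3a and H3f3b both encode H3.3, the form of H3 that is placed in chromatin outside S phase. For H3f3a the log2 signals were 11.73, 11.78, 11.67 and 11.77 in male WT, 11.77, 11.79, 11.54 and 11.86 in female WT, 11.71, 11.64, 11.68 and 11.61 in male cs-ERα-/- and 11.62, 11.60, 11.75 and 11.84 in female cs-ERα-/- mice. The groups overlapped in both sexes, and the difference was -0.06 with a 95% interval of -0.15 to 0.04 (adjusted p = 0.594).

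For H3f3b the log2 signals were 11.58, 11.44, 11.67 and 11.27 in male WT, 11.59, 11.43, 11.68 and 11.67 in female WT, 11.76, 11.72, 11.50 and 11.45 in male cs-ERα-/- and 11.58, 11.58, 11.55 and 11.55 in female cs-ERα-/- mice. These groups also overlapped, with a difference of 0.04 and a 95% interval of -0.07 to 0.16 (adjusted p = 0.739). Both H3.3 intervals lie below the estimate of 0.20 for H3c13, the smallest among the called H3 genes. The 95% interval of H3c13 was 0.10 to 0.31 and overlaps that of H3f3b. Differences between genes were not tested.

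H2az1 encodes H2A.Z, a variant found around transcription start sites. Its log2 signals were 10.19, 10.45, 10.19 and 10.35 in male WT, 10.32, 10.24, 10.20 and 10.35 in female WT, 10.20, 10.25, 10.37 and 10.13 in male cs-ERα-/- and 10.17, 10.18, 10.32 and 10.26 in female cs-ERα-/- mice. The groups overlapped, with a difference of -0.05 and a 95% interval of -0.15 to 0.05 (adjusted p = 0.627).

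Macroh2a1 encodes macroH2A, a variant with a large extra domain that is enriched on the inactive X chromosome. Its log2 signals were 9.34, 9.28, 9.31 and 9.50 in male WT, 9.42, 9.39, 9.22 and 9.26 in female WT, 9.32, 9.43, 9.29 and 9.32 in male cs-ERα-/- and 9.33, 9.28, 9.35 and 9.16 in female cs-ERα-/- mice. All 4 groups overlapped, with a difference of -0.03 and a 95% interval of -0.13 to 0.07 (adjusted p = 0.806). H2ax, whose phosphorylated form marks DNA breaks, differed by -0.04 (adjusted p = 0.778) and H2aj by 0.00 (adjusted p = 0.992). H2al2a, known as a variant of the testis, had the largest variant difference at -0.22, with a standard error of 0.09 (adjusted p = 0.192). The 7 variants together had a median difference of -0.042 and 0 calls.

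The comparison of genotypes within a sex rested on 4 against 4 mice, and it made 0 calls among the 34 probes in males and 0 in females, where 0.955% and 0.71% of all probes were called in either direction. An unadjusted p under 0.05 was reached by 12 probes in males and by 12 in females, against 12% and 10.6% of all probes. The smallest adjusted p in males was that of H3c7, with a difference of 0.63 and a standard error of 0.16 (adjusted p = 0.0609), and the smallest in females was that of H2bc6, with a difference of 0.40 and a standard error of 0.10 (adjusted p = 0.0657). In males 7 of the 34 probes had all 4 cs-ERα-/- mice above all 4 WT mice, and in females 3 did, while 3.55% and 3.23% of all probes did so. All 8 genes called over both sexes had differences above 0 in each sex, which their choice by the mean of both sexes favours.

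The interaction asked whether the genotype difference was unlike in females and males. It gave 0 calls, both among the 34 probes and among all 12246 tested probes (0%), and 0 of the 34 had an unadjusted p under 0.05, against 3.72% of all probes. For H3c1 the difference was 0.49 in males and 0.26 in females, and for H2bc6 0.21 and 0.40. The tests of these contrasts gave interaction values of -0.23 and 0.19 (both adjusted p = 0.999). Of the variants, H2aj alone had an unadjusted interaction p under 0.05, with 0.24 in males and -0.24 in females (adjusted p = 0.999). Its probe was detected on 1 of the 4 male WT arrays and entered the test through the other groups. The male difference of H2aj was therefore measured against a group near the detection limit, with a mean of 5.38.

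**Figure D4:**
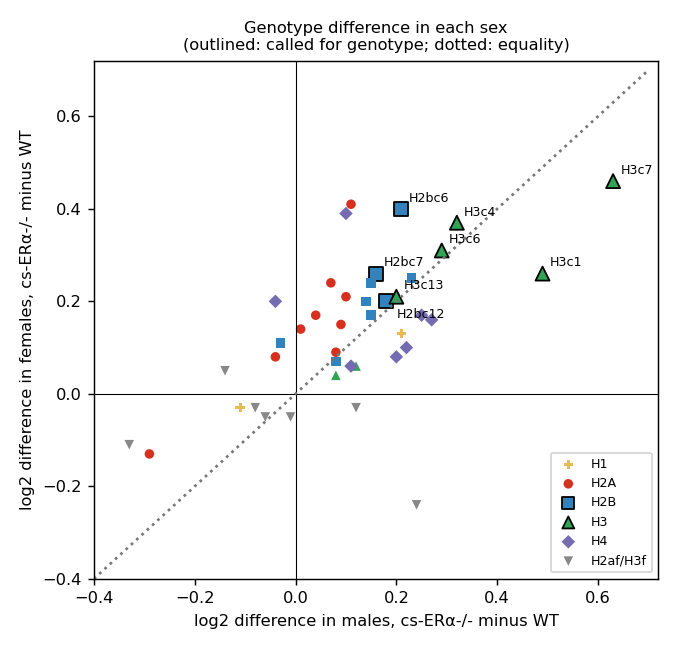
Log2 difference between cs-ERα-/- and WT mice in males (x axis) against females (y axis) for the 41 tested histone probes, each from 4 against 4 mice. Outlined symbols are the 8 genes called over both sexes, all above 0 on both axes, such as H2bc12 (0.18 and 0.20) and H3c7 (0.63 and 0.46).

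Between sexes 0 of the 34 probes were called, and 1.27% of all probes were. An unadjusted p under 0.05 was found for 3 probes, against 12.9% of all probes. H2bc6 was 0.28 higher in females with a standard error of 0.07 (adjusted p = 0.0532), which is the excess of the female over the male mice of both genotypes listed above. H2ac21 (Hist2h2ab) had a female minus male difference of -0.31 with a standard error of 0.10 (adjusted p = 0.176), and H3c7 was 0.24 higher with a standard error of 0.11 (adjusted p = 0.361). The median sex difference over the 34 probes was 0.02, beside 0.002 over all probes.

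Genes that act with the replication-dependent histones were read in the same fit. From a list of S phase and proliferation genes, 36 of 44 were on the array and 20 were tested. Mcm3, a subunit of the replicative helicase, was higher in cs-ERα-/- hearts by 0.41 with a standard error of 0.11 (adjusted p = 0.0446). It was the 1 call among the 20, against 2.43% of all tested probes called higher, and 0 were lower. Its probe was detected on 11 arrays, too few to pass the detection rule in all 4 groups. The mean signal of Mcm3 was 5.32 in WT and 5.73 in cs-ERα-/- mice, near the detection limit. An unadjusted p under 0.05 was found for 3 of the 20, against 17.6% of all tested probes in either direction. The list had a median difference of 0.055, and Pcna and Ccna2 were among 8 genes detected on 0 arrays. Mean signals over the list ran from 6.67 to 6.82 in male WT, 6.66 to 6.97 in female WT, 6.67 to 6.90 in male cs-ERα-/- and 6.78 to 6.98 in female cs-ERα-/- mice, and overlapped.

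The probe for Slbp, whose protein binds the histone stem-loop, was detected on 0 arrays, and no probe matched Npat, the coactivator of histone genes in S phase. Of the other histone pre-mRNA processing genes 18 were tested and 0 called, with 4 at an unadjusted p under 0.05, beside the same 17.6% of all probes. The nearest to the threshold was Snrpg, a shared Sm protein of small nuclear RNPs, at -0.16 (adjusted p = 0.0602). Of the histone chaperones and assembly factors 19 were tested and 0 called, with 3 at an unadjusted p under 0.05. The median difference of these 19 was -0.001, and 9 of them were above 0. Npm1, a nucleolar histone chaperone, differed by 0.14 (adjusted p = 0.0857) and Nap1l1 by 0.14 (adjusted p = 0.119). Chaf1a, the large subunit of the CAF-1 complex that delivers H3 and H4 to new DNA, differed by 0.25 (adjusted p = 0.18).

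Markers of myeloid cells differed with genotype along with the histones. Of 16 tested, 11 were higher in cs-ERα-/- hearts and 0 lower, against 2.43% of all tested probes called higher, with a median difference of 0.359. Several of these markers, Lgals3, Lyz2, Laptm5 and Mrc1 among them, had been listed by the study as higher in cs-ERα-/- hearts on these same arrays. The list was chosen with such results known, so its count is not independent of them. The mean signal over the list was 9.11 to 9.36 in male WT, 8.87 to 9.14 in female WT, 9.35 to 9.78 in male cs-ERα-/- and 9.38 to 9.46 in female cs-ERα-/- mice, so that the female groups were separate and the male groups overlapped narrowly. Lyz2, a lysozyme of macrophages, rose by 0.50 (adjusted p = 0.000405). The defining markers Ptprc and Itgam, as well as Ccr2 and Cybb, were detected on 0 arrays. Of 12 fibroblast markers, Dcn and Dpt, which encode matrix proteins, were higher by 0.18 and 0.24 (adjusted p = 0.00753 and 0.0111) and 0 were lower, against the same 2.43%. Of 12 endothelial, 4 red blood cell and 2 lymphocyte markers 0 were called, and of 13 cardiomyocyte markers 1 was higher, Nppa, which encodes atrial natriuretic peptide. The part of these cell types in the histone differences was not tested.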

How the data were processed

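RNA of 16 hearts was labelled with an oligo-dT primer and hybridised to Illumina MouseRef-8 v2 arrays. The deposited signals are linear bead intensity values, which the authors exported from Genome Studio, with no normalization between arrays. All 16 signal columns hold values below 0, so a background had been subtracted before deposit. The setting without background correction shifted these signals above 0 and left out only the further correction made here. The deposited detection p-values compare each probe with the negative control beads of its own array. Cubic spline values by the authors, also intensity, served as an alternative. Signals were corrected and quantile-normalized with neqc (offset 16) in limma 3.58.1 (R 4.3.3). All 12246 probes detected on 3 arrays of any group were fitted with a mean per group and an intensity trend, with Benjamini-Hochberg adjustment over them. The methods describe 2 BeadChips, but the labels do not assign arrays to them, so no chip effect was fitted and its part was not tested. Each array was a separate mouse, and 4 per group limit precision.

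Genes were named through the platform annotation and RefSeq (GRCm38.p6). Per-mouse values are given for called members, the 3 uncalled core or linker members with the smallest genotype p, and the brightest variants. H2ac10 was chosen after its values were seen. Where a gene had several tested probes the brightest stood for it. The members and lists were chosen with earlier results of these data known. The fit was tested on simulated data. Alternatives were other values, background correction, scaling, filters, moderation, a replicate block, each sex alone and leaving out each array. Plots were made in Python 3.11.15 (matplotlib 3.10.9).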

Additional observations from a re-analysis of the deposited data

How the results depend on the processing

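Of the 34 core and linker probes, 8 were called for genotype. The count was 7 with the authors' values, 8 without background correction, 8 with a filter on every group, 6 without the intensity trend and 6 with an ordinary linear model. Of all tested probes 3.74% were called in the main fit. In the settings just listed, in the same order, 3.54%, 3.65%, 3.9%, 2.82% and 2.64% were called. It was 1 with median scaling, where H3c7 remained, 131 of all probes (1.07%) were called and the members' median was 0.136 with 32 of 34 above 0. It was 5 without a probe filter, where 64 core and linker probes and 25697 probes in all were tested and 1.31% of all were called. The cause of the drop with median scaling was not tested. Leaving out 1 array gave 5 to 12 calls, while 2.8% to 3.76% of all probes were called. Direction never turned for the 15 genes that were followed singly, which were the called genes, the 3 uncalled members with the smallest p and the brightest variants. Signs of other probes did turn: 32 of the 34 differences were above 0 in the main fit and 29 without male cs-ERα-/- mouse 4. H3c7 kept its call in every fit, H2bc12, H2bc6 and H3c4 lost it only with median scaling, and H3c1 there and without a filter. H3c13 lost it with median scaling and in 5 of the fits without 1 array, while H2bc7 and H3c6 lost it in 4 and 5 of the 8 other settings.

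Between sexes, where 0 were called, H2bc6 was called without background correction (count 1) and without the trend (count 1), and leaving out 1 array gave 0 to 1. Of all probes, 1.3% were called between sexes without background correction, 0.857% without the trend, and 0.893% to 1.73% with 1 array left out. In males 1 was called with the authors' values (H3c7), where 0.898% of all probes were called. Leaving out 1 array gave 0 to 1 in males and 0 to 1 in females, where 0.442% to 1.06% and 0.287% to 0.781% of all probes were called. With the arrays of 1 sex alone the counts were 0 and 0, beside 1.06% of all probes in males and 0.566% in females. The interaction gave 0 calls in every fit run.

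Same-numbered arrays of different groups had residual correlations between -0.11 and 0.20, and 9 of 16 correlated best with their own number. The correlation was over 0.1 for every pair numbered 4 but not for every pair numbered 1, 2 or 3, and no label ties the numbers to litters or chips, so the numbers were not read as pairs. With the replicate number as a block, 10 probes were called for genotype, H2bc4 and H2bc9 among them, and 1 (H3c7) for genotype in males, with 0 for sex, 0 for the interaction and 0 in females. Of all probes, 4.39% were called for genotype and 1.12% for genotype in males with the block.

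Probes under detection, including 30 core and linker probes, give no level here.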

Other observations

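The mean log2 signal over the 34 core and linker probes was 8.41 to 8.57 in male WT, 8.45 to 8.58 in female WT, 8.48 to 8.78 in male cs-ERα-/- and 8.6 to 8.71 in female cs-ERα-/- mice. The female groups were separate and the male groups overlapped through male cs-ERα-/- mouse 1 at 8.48, the mouse that was lowest of its group for 8 of 9 H2A and 6 of 7 H4 probes. In none of the 60 groups of 4 values examined, those of 15 named genes, did 1 mouse stand apart by Dixon's test.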
